A study of Mus musculus with 24 samples.

Results

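Histones are the proteins that DNA is wound around. The genes described here encode the core histones H2A, H2B, H3 and H4, the linker histone H1 and the variant forms of H1, H2A and H3, and they were measured in the brain and liver of newborn female mice. All probes of the array other than controls whose gene name begins with Hist1h to Hist4h, H1f, H2af or H3f were taken, which gave 70 probes of 47 genes among 41174. A probe was kept where, in 1 or more groups, none of the 4 arrays fell short of the scanner software's call of well above background, which left 62 probes of 43 genes, set against 30032 probes kept by the same rule over the whole array. Of the 62, 40 probes of 31 genes with names in Hist1h to Hist4h were classed as replication-dependent histones. The other 22 probes, of 12 genes named H1f, H2af or H3f, were classed as variants. The class was set by gene name alone. The 8 probes left out included every probe of Hist1h1t, Hist1h2ac, Hist1h2be and H1fnt. The nearest to the limit among them was Hist1h2ac, well above background on 2 of 4 arrays in its best group. Every kept probe had all 4 arrays in more than 1 group, but for 5 probes these were liver groups only and for 1 brain groups only. On all 24 arrays 51 of the 62 were well above background.

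Replication-dependent histone genes lie in clusters (Hist1, Hist2 and Hist3 and the single gene Hist4h4), are transcribed mainly in S phase, and give mRNAs that end in a stem-loop instead of a poly(A) tail. Variant histone genes are scattered over the genome, are transcribed through the cell cycle and in non-dividing cells, and give polyadenylated mRNAs. The newborn liver is still a site of blood cell formation and holds many dividing cells, while most neurons of the newborn brain have left the cell cycle. The amplification kit that the labels name primes from the poly(A) tail, so a signal from a replication-dependent gene may come from a minority of its transcripts.

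There were 6 groups of 4 arrays, a G20, a CC and an NC group for each tissue. G20 were somatic cell clones of the 20th generation of serial recloning, in which each generation is cloned from the one before it, likewise by way of cumulus cells. CC were somatic cell clones derived from cumulus cells, the cells around the egg, and their labels give no number of generations. NC were normal controls that were not cloned but produced by ICSI, the injection of a sperm into an egg. All were female neonates, and their genetic background is given as a (C57BL/6 x DBA2) cross with 129/Sv. Every G20 array carried 1 source name, so the p-values may measure a technical spread between arrays and not one between animals. The levels below are log2 processed signals minus the 75th percentile of the same array, and a difference of 1 is a doubling. Bulk tissue RNA cannot tell fewer cells with a transcript from less of it in each cell.

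The 75th percentile of the signal lay between 226 and 253 in CC livers and between 788 and 909 in NC brains, with the other groups between, and the share of probes well above background was 53.6% to 70.6%. Each group filled a slide of its own, and the effects of slide and group cannot be told apart. NC and G20 arrays of 1 tissue were scanned in the same session, whereas all CC arrays were scanned in a later session. In every comparison with CC the session and the group therefore cannot be told apart, and brain and liver shared a session only in CC. The authors also deposited a matrix of processed values. Its NC and G20 columns followed the scanner values of their own arrays (r of 0.9999 to 1.0 across probes). Its CC columns did not (r of 0.9696 to 0.9713): each probe was shifted by the same amount on all CC brain arrays, and by another amount on all CC liver arrays. On the log2 scale the SD of the shift over probes was 0.618 in brain and 0.612 in liver, and no source used here gives its origin. The median shift was -0.85 over 31 replication-dependent probes in CC brain and 0.09 over 38 in CC liver, so results that use CC are given below from the scanner files and, where the matrix has the probe, from the matrix.

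The Hist1 probes lie on mouse chromosome 13 and came from 21 genes with 27 probes, the Hist2 probes on chromosome 3 from 6 genes, the Hist3 probes on chromosome 11 from 3 genes with 6 probes, and Hist4h4 on chromosome 6. As examples, 100 bases upstream of the start are printed 5′ to 3′ from RefSeq, build GRCm38.p6. They are from 1 gene of each replication-dependent family, from Hist3h2ba and from 2 variants. For each family the gene was that with the lowest brain-minus-liver difference in NC among genes with a promoter found. Hist1h2bc and Hist1h3a, which moved further in their families, had none. Hist3h2ba was the only replication-dependent gene with a single probe that went the other way between tissues. The positions are chr13:23763568-23763667 (+) for Hist1h1a, chr13:23750988-23751087 (+) for Hist1h2ab, chr13:21721944-21722043 (+) for Hist1h2bm, chr3:96246585-96246684 (+) for Hist2h3c1, chr13:23530944-23531043 (+) for Hist1h4h, chr11:58948811-58948910 (+) for Hist3h2ba, chr3:137864387-137864486 (+) for H2afz and chr11:116024505-116024604 (-) for H3f3b. Capitals mark matches to the TATA box (TATAAA), the CCAAT box (CCAAT) and the histone octamer (ATTTGCAT) on either strand.
Hist1h1a: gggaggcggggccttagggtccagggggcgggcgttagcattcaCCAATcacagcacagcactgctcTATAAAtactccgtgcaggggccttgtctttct
Hist1h2ab: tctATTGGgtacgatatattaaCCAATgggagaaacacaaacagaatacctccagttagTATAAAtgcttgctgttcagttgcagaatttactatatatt
Hist1h2bm: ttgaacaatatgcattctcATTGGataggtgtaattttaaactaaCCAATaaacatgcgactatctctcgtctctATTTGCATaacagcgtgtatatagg
Hist2h3c1: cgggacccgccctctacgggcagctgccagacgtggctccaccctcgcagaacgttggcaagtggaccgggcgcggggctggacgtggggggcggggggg
Hist1h4h: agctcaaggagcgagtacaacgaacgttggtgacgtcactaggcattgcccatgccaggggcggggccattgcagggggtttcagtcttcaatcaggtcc
Hist3h2ba: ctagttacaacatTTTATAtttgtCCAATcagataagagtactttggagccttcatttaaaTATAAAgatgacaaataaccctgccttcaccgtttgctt
H2afz: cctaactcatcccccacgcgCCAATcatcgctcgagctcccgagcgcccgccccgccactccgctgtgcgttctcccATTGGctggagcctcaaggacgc
H3f3b: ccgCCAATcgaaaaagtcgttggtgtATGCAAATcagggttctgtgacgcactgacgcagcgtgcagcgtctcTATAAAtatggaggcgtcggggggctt

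RefSeq promoters were found for 36 of the 43 genes. In the 250 bases upstream of the start, the octamer, a motif known from H2B promoters, stood in 8 of 26 replication-dependent promoters and in 1 of 10 variant promoters, against 1.6% of all 32851 promoters. Of the octamers in replication-dependent promoters, 5 were in 10 H2A and 3 in 4 H2B promoters, and none was in the 5 H1, 2 H3 or 5 H4 promoters. The CCAAT box stood in 22 of 26 replication-dependent and 6 of 10 variant promoters (33.85% of all), and the TATA box in 14 of 26 and 1 of 10 (12.37% of all). Several H2A and H2B genes of Hist1 face each other across a short gap and can share such a window. These matches are descriptions of letters in a window, not sites.

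The main feature of the replication-dependent genes was the tissue difference. In all 3 groups 37 of 40 probes were lower in brain than in liver (limma, Benjamini-Hochberg adjusted p under 0.05), and these were the same 37 probes, beside 43.2% of all probes lower in brain in G20, 42.7% in CC and 42.7% in NC. Of the 40, 5 had been kept through liver groups alone and 1 through brain groups alone. The direction of these was largely set by that rule, and they add no support. The counts and medians here, and those by family and cluster below, include them. The median brain-minus-liver difference was -4.09 in G20, which is 17.1-fold lower in brain, -2.92 in CC, 7.59-fold lower, and -4.54 in NC, 23.2-fold lower. Over all probes the median size of the tissue difference, whatever its sign, was 1.52 in G20, 1.13 in CC and 1.503 in NC. The matrix gave 33 of 35, 32 of 34 and 35 of 37 probes lower in brain in G20, CC and NC, with medians of -3.67, -3.71 and -3.99, and 2 higher in each, beside 37.4%, 35.9% and 36% of all its probes lower and 48.9%, 50.4% and 50.8% higher.

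**Figure D1:**
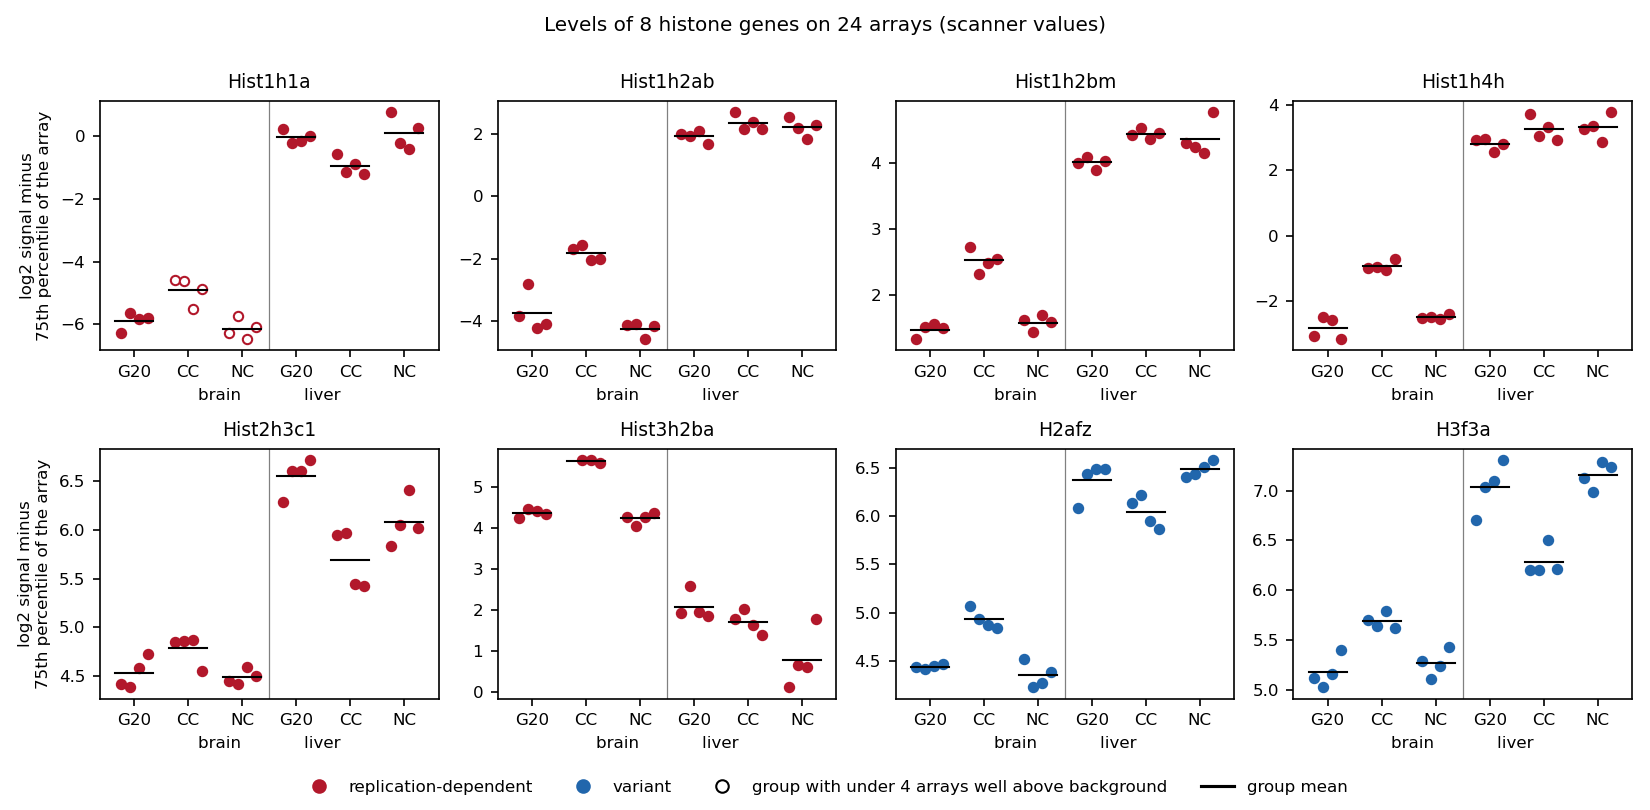
Levels of Hist1h1a, Hist1h2ab, Hist1h2bm, Hist1h4h, Hist2h3c1, Hist3h2ba, H2afz and H3f3a, each by its brightest probe, on the 24 arrays. Values are log2 processed signal minus the array's 75th percentile, by tissue and group. Over all kept replication-dependent probes, not drawn here, the median lay between -0.98 and 0.59 on brain arrays and between 2.65 and 3.14 on liver arrays. The variant medians lay between 1.52 and 2.73 in both tissues.

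The variants moved less and in both directions. Lower in brain were 13 of 22 probes in G20, 12 in CC and 13 in NC, and higher in brain were 5, 4 and 7, with medians of -1.13, -0.37 and -0.90. For the higher ones the share of all probes was 44.7%, 40.2% and 44.9%. The same 11 variant probes were lower in brain in all groups and the same 3 were higher. In the matrix 13 of 22, 12 of 20 and 11 of 22 variant probes were lower in brain and 9, 8 and 9 were higher (medians -0.70, -0.80 and -0.32).

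**Figure D2:**
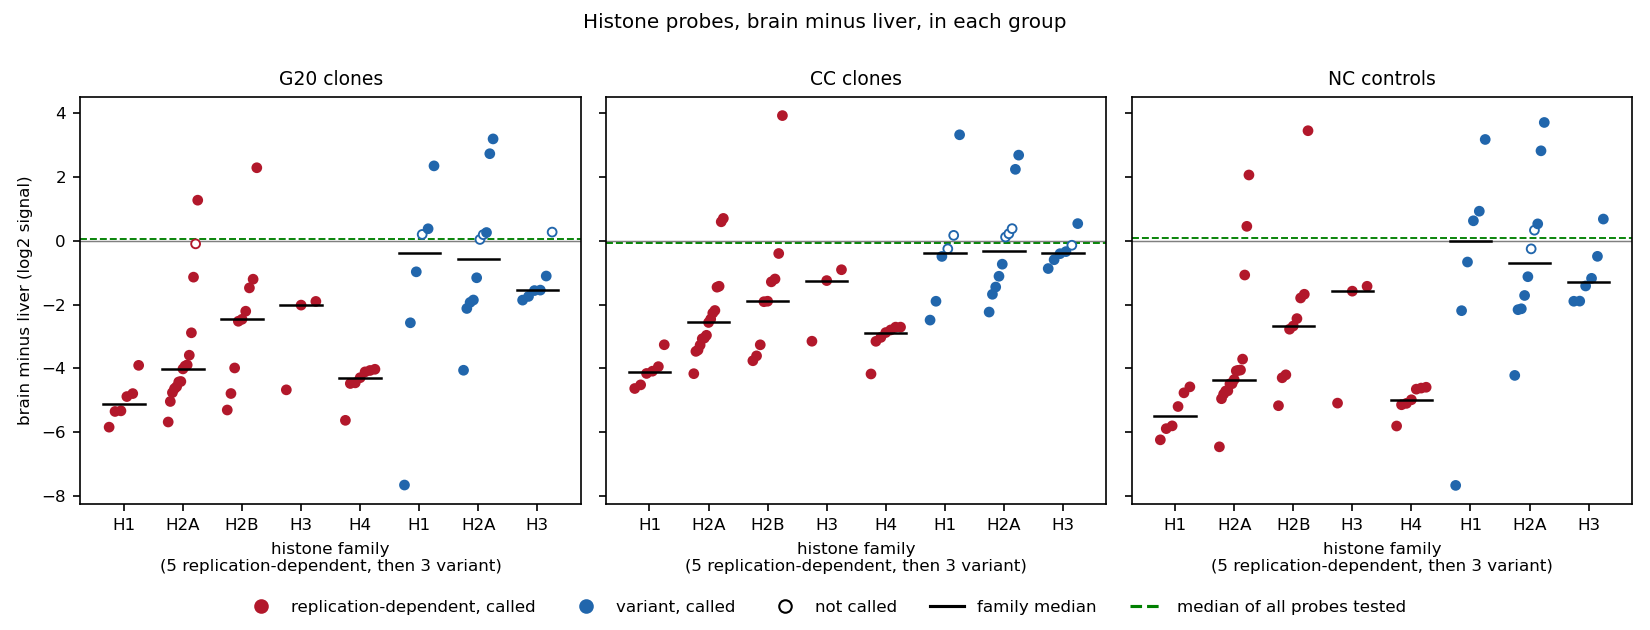
Brain-minus-liver difference in log2 level for each histone probe, by class and by G20, CC and NC. The replication-dependent medians were -4.09, -2.92 and -4.54, and the variant medians were -1.13, -0.37 and -0.90.

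The linker histones H1, which bind where DNA enters and leaves the nucleosome, showed the largest median among the replication-dependent families in every group, at -5.11 in G20, -4.13 in CC (-4.96 in the matrix) and -5.51 in NC. Hist1h1a read -6.28, -5.63, -5.83 and -5.81 in G20 brains against 0.24, -0.22, -0.15 and -0.01 in G20 livers. In NC it read -6.28, -5.75, -6.48 and -6.08 in brain against 0.77, -0.21, -0.41 and 0.26 in liver. No brain array came near a liver array, although the probe was well above background on 1 of 4 arrays in NC brain and on 3 of 4 in CC brain, against 4 of 4 in G20 brain. The NC brain level is therefore only partly measured, and so is the NC difference. The fitted difference for Hist1h1a was -5.85 ± 0.24 (SE) in G20, -3.95 ± 0.24 in CC and -6.25 ± 0.24 in NC (limma adjusted p of 5.74e-16, 8.76e-13 and 1.77e-16, n = 4 a group), and -5.41 in CC in the matrix. Hist1h1b, Hist1h1c, Hist1h1d and Hist1h1e, the other somatic H1 genes on the array, had differences from -3.91 to -5.36 in G20, from -3.26 to -4.64 in CC (from -3.67 to -5.02 in the matrix, which lacks a CC value for 1 probe) and from -4.59 to -5.90 in NC. Hist1h1d probe A_51_P501260 was not well above background in any G20 or CC brain, and its level was at least 26.2-fold lower in G20 brain and at least 21.9-fold lower in CC brain than in liver.

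H2A, which pairs with H2B in the nucleosome, had medians of -4.02 in G20, -2.56 in CC (-3.93 in the matrix) and -4.36 in NC. Hist1h2ab had levels of -3.85, -2.81, -4.24 and -4.11 in G20 brains against 2.02, 1.93, 2.11 and 1.70 in G20 livers. In CC its levels were -1.68, -1.56, -2.04 and -2.01 in brain against 2.71, 2.16, 2.38 and 2.16 in liver, and in NC they were -4.14, -4.10, -4.58 and -4.17 in brain against 2.55, 2.20, 1.86 and 2.28 in liver. Brain and liver arrays did not overlap in any group. The difference was -5.69 ± 0.23 in G20 (51.6-fold lower), -4.17 ± 0.23 in CC (18.03-fold) and -6.47 ± 0.23 in NC (88.6-fold; limma adjusted p of 4.91e-16, 1.69e-13 and 5.00e-17). In the matrix the CC difference for Hist1h2ab was -5.45. Hist1h2ae was not well above background in any brain array, and its level was at least 13.4-fold lower in brain than in liver in G20, at least 9.496-fold lower in CC and at least 16.9-fold lower in NC. Such bounds set the liver mean against the lowest signal well above background on each brain array, or the probe's own brain signal where that was higher.

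H2B had medians of -2.46 in G20, -1.90 in CC (-1.64 in the matrix) and -2.68 in NC. Hist1h2bm, whose promoter above holds both CCAAT and the octamer, read 1.34, 1.51, 1.56 and 1.499 in G20 brains against 4.00, 4.09, 3.89 and 4.03 in G20 livers. In NC it read 1.62, 1.44, 1.70 and 1.60 in brain against 4.30, 4.24, 4.15 and 4.76 in liver. The groups were apart, by -2.53 ± 0.11 in G20, -1.91 ± 0.11 in CC and -2.78 ± 0.11 in NC (limma adjusted p of 1.84e-15, 3.61e-13 and 3.39e-16), and by -1.83 in CC in the matrix. Hist1h2bc, at -5.31, -3.61 (-4.22 in the matrix) and -5.18 by probe A_51_P462311, moved most among H2B probes in G20 and NC. Hist1h2ba, the H2B form known from testis, moved by -2.21, -1.29 (-1.58 in the matrix) and -2.44.

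H3 was covered by only 3 probes, with medians of -2.02 in G20, -1.25 in CC (-1.38 in the matrix) and -1.58 in NC. Hist2h3c1 read 4.42, 4.39, 4.58 and 4.73 in G20 brains against 6.29, 6.60, 6.60 and 6.71 in G20 livers, and 4.46, 4.42, 4.60 and 4.50 in NC brains against 5.83, 6.05, 6.40 and 6.02 in NC livers. The levels did not overlap, and the differences were -2.02 ± 0.14, -0.91 ± 0.14 and -1.58 ± 0.14 in G20, CC and NC. Hist1h3d moved by -1.90, -1.25 and -1.43, and Hist1h3a by -4.68, -3.15 and -5.10. The CC values in the matrix were -1.38 for Hist2h3c1, -1.28 for Hist1h3d and -3.56 for Hist1h3a.

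H4, the most conserved core histone, had medians of -4.30 in G20, -2.88 in CC (-3.95 in the matrix) and -4.99 in NC over 7 probes. Hist1h4h had levels of -3.07, -2.48, -2.57 and -3.16 in G20 brains against 2.94, 2.97, 2.56 and 2.81 in G20 livers, and of -2.52, -2.50, -2.54 and -2.40 in NC brains against 3.27, 3.36, 2.88 and 3.79 in NC livers. Its difference was -5.64 ± 0.18 in G20, -4.18 ± 0.18 in CC and -5.82 ± 0.18 in NC (limma adjusted p of 1.18e-17, 3.07e-15 and 6.68e-18), and -4.80 in CC in the matrix. The array's annotation (mouse build mm8) places the Hist1h4h probe at chr13:22048045-22048051 and lists no RefSeq transcript for it. The Hist1h4h promoter printed above lies at chr13:23530944-23531043 (GRCm38.p6), and whether the probe measures that gene was not tested. The other H4 probes, of Hist1h4a, Hist1h4d, Hist1h4f, Hist2h4 and Hist4h4, ranged from -4.03 to -4.48 in G20, from -2.71 to -3.16 in CC (from -3.57 to -4.19 in the matrix) and from -4.60 to -5.15 in NC. Genes of this family encode the same protein and 14 of the 40 replication-dependent probes list several RefSeq transcripts, so signals assigned to 1 H4 or H2A gene may include its near-identical copies.

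By cluster, all 27 Hist1 probes and all 6 Hist2 probes were lower in NC brain, with medians of -4.66 and -2.70, and Hist4h4 was lower by a difference of -4.62. The Hist3 cluster was divided, with 3 probes higher and 3 lower in NC brain and a median of -0.67. Hist3h2ba, an H2B gene, read 4.26, 4.47, 4.43 and 4.35 in G20 brains against 1.93, 2.58, 1.96 and 1.86 in G20 livers. In CC it read 5.67, 5.66 and 5.59 in brain, with 1 array left out as an outlier spot, against 1.78, 2.03, 1.64 and 1.38 in liver. In NC it read 4.29, 4.05, 4.27 and 4.37 in brain against 0.11, 0.65, 0.61 and 1.77 in liver. All brain levels stood above all liver levels, by 2.29 ± 0.24 in G20, 3.93 ± 0.26 in CC and 3.46 ± 0.24 in NC (limma adjusted p of 1.16e-08, 6.93e-12 and 1.32e-11), and by 2.90 in CC in the matrix. Hist3h2bb, the other H2B member of the cluster, has the current symbol H2bu1-ps, a pseudogene name. Its probe went the opposite way, by -1.48, -0.40 (-0.79 in the matrix) and -1.80.

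Among the variants, those that replace H2A or H3 in dividing and non-dividing cells were mostly lower in brain. H2afz encodes H2A.Z, found beside transcription starts. It read 4.44, 4.41, 4.45 and 4.46 in G20 brains against 6.08, 6.43, 6.49 and 6.49 in G20 livers, and 4.52, 4.23, 4.27 and 4.38 in NC brains against 6.41, 6.44, 6.51 and 6.58 in NC livers. Every brain array was below every liver array, by -1.93 ± 0.10 in G20, -1.11 ± 0.10 in CC and -2.13 ± 0.10 in NC (limma adjusted p of 2.38e-14, 5.48e-10 and 4.03e-15), and by -1.47 in CC in the matrix. H2afv, which encodes the second form of H2A.Z, moved by -1.86, -0.73 and -1.72, and H2afx, whose protein is phosphorylated at DNA breaks, by -2.12, -1.68 and -2.16. The matrix gave -1.38 for H2afv and -1.42 for H2afx in CC. In CC the H2afv difference was 0.17 after quantile normalization, with an adjusted p of 0.0992. H3f3a, 1 of the 2 genes of the replacement histone H3.3, moved by -1.86, -0.59 and -1.89 by its brightest probe, and in CC that value was 0.29 after quantile normalization and -1.34 in the matrix.

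Of the macroH2A genes, whose proteins carry a large extra domain and are known from silent chromatin, H2afy2 and H2afy3 were higher in brain, while the probes of H2afy disagreed. H2afy2 (macroH2A2) read -1.19, -1.61, -1.17 and -1.05 in G20 brains against -3.89, -4.63, -4.72 and -4.56 in G20 livers, and -1.05, -1.13, -1.003 and -1.05 in NC brains against -5.06, -4.82, -4.91 and -4.31 in NC livers. The difference was 3.20 ± 0.17 in G20, 2.24 ± 0.17 in CC and 3.72 ± 0.17 in NC. In CC liver no array was well above background and the bound was at least 4.74-fold higher in brain. H2afy3 was higher in brain by 2.74, 2.69 (3.05 in the matrix) and 2.83. For H2afy (macroH2A1), probe A_52_P179238 was lower in brain in every group, by -1.16 in G20, -1.45 in CC (-0.59 in the matrix) and -1.13 in NC. The brightest H2afy probe, A_52_P141583, gave 0.26 in G20, 0.12 in CC and 0.53 in NC, of which the CC value was not past the threshold (0.76 in the matrix, past it), and centring on the median turned it to -0.11 in G20 and -0.23 in CC. Probe A_52_P402989 of H2afy gave 0.19, 0.38 and 0.33, none past the threshold in scanner values, and 0.61 in CC in the matrix.

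Probes of 1 gene did not always go the same way. For Hist3h2a, probe A_52_P184352 read 1.38, 1.75, 1.59 and 1.36 in G20 brains against 6.08, 6.37, 6.40 and 6.29 in G20 livers, a difference of -4.77, and A_51_P441377 moved by -4.42. In CC these probes of Hist3h2a gave -2.46 and -1.43 in scanner values and -4.01 and -3.78 in the matrix. Probe A_52_P617924 of Hist3h2a moved by 1.28 in G20, 0.70 in CC and 2.07 in NC, with no liver array well above background, so its level was at least 1.70-fold, 1.42-fold and 2.72-fold higher in brain. With normexp background correction its difference was -0.28 in CC and -1.95 in NC. The array's annotation (mouse build mm8) places A_52_P617924 at chr11:58788460-58788519, and the other Hist3h2a probes between 58770911 and 58771706. For A_52_P617924 and A_51_P441377 it lists no RefSeq transcript, and A_51_P441377 lies on the other strand. The remaining Hist3h2a probe, A_52_P615375, moved by -0.10 in G20 (not past the threshold), 0.60 in CC (0.64 in the matrix) and 0.45 in NC.

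H1fx, a linker histone variant, was higher in brain by probe A_51_P114843, at 2.35 in G20, 3.33 in CC (2.91 in the matrix) and 3.18 in NC. Probe A_52_P748854 of H1fx, which has no position in the array's annotation, moved by -7.67, -1.90 and -7.68, and by -7.39 in CC in the matrix. H1f0, the linker histone of cells that stop dividing, moved by -2.57, -2.49 (-2.03 in the matrix) and -2.19 by its brightest probe, but by 0.38, -0.25 and 0.93 by A_51_P511112. The last of these, in NC, was -0.65 with normexp background correction, and the CC value of that probe was not past the threshold in scanner values but 1.07 and past it in the matrix. H2afj was lower in brain by its brightest probe, by -4.06, -2.24 (-3.61 in the matrix) and -4.23. Probe A_52_P286488 of H2afj gave 0.04, 0.22 and -0.25, none past the threshold in scanner values. The brightest probe of H3f3b, the other H3.3 gene, gave -1.56, -0.14 (not past the threshold; -1.06 in the matrix, past it) and -1.18, but 0.35, 0.80 and 0.72 after quantile normalization. Probe A_52_P217875 of H3f3b gave 0.27 in G20, which was not past the threshold, and was higher in brain by 0.54 in CC and 0.68 in NC.

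**Figure D3:**
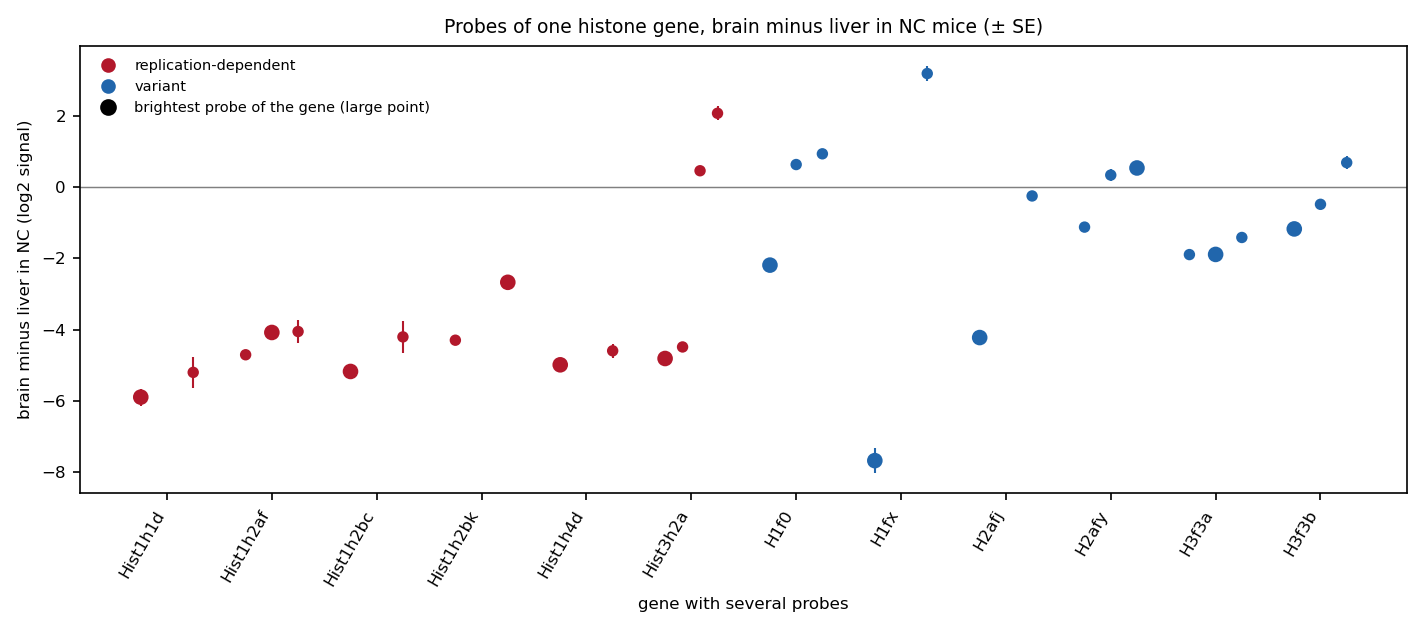
Brain-minus-liver difference in log2 level for each probe of the histone genes with several kept probes, in NC. The 4 probes of Hist3h2a lay between -4.81 and 2.07 in NC and the 2 probes of H1fx at -7.68 and 3.18.

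Genes of DNA replication and mitosis were lower in brain nearly throughout, while those of histone mRNA processing and the chaperones were divided. Of 34 probes of DNA replication genes tested, 33 were lower in NC brain than in NC liver (median -2.83), beside the 42.7% lower and 44.9% higher over all probes, and all 23 probes of mitosis genes were lower (median -3.45). Pcna, the sliding clamp of the replication fork, moved by -3.07, Mki67 (Ki-67) by -4.43 and Cdc6, a replication licensing factor, by -5.13. Among 18 probes of histone mRNA processing genes, 9 were lower and 2 higher in NC brain (median -0.27), a share lower of 50%, near that of all probes. Slbp, which binds the stem-loop, moved by -2.10 and Npat, the transcriptional coactivator of histone genes, by -1.15. Among 27 histone chaperone probes 17 were lower and 8 higher (median -0.58). The chaperones that deliver newly made H3 and H4 at the fork were lower, Asf1b by a difference of -4.61, Chaf1a of -3.03 and Chaf1b of -2.32. The H3.3 chaperones were divided, with Daxx at -0.58, Hira at 1.27 and Atrx at 2.87, and the neuronal chaperone Nap1l2 was at 7.75.

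Markers of other cells moved with the tissue difference as well. In NC brain all 16 erythroid and all 18 leukocyte and megakaryocyte probes were lower than in liver (medians -9.25 and -8.18), all 14 hepatocyte probes were lower (-12.85) and all 13 neuron probes were higher (9.26), as the tissue labels say. The summed linear level of the DNA replication list, relative to the 75th percentile, was 57.9 to 67.6 in G20 brain against 396 to 525 in G20 liver, 86.3 to 103 in CC brain against 427 to 547 in CC liver, and 53.9 to 62.2 in NC brain against 411 to 523 in NC liver. The part of blood-forming and dividing cells in the histone difference was not tested.

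After 20 generations of serial cloning no histone probe in brain passed the test. Between G20 and NC brain 0 of 57 probes tested were called by limma, beside 1.38% of all probes. The median difference was 0.06 over 35 replication-dependent probes (range -0.82 to 0.76, median SE 0.14) and -0.01 over 22 variant probes (range -0.28 to 0.19, median SE 0.11). Hist1h1e had the highest difference, at 0.76 ± 0.26 (limma adjusted p of 0.163). Probe A_52_P617924 of Hist3h2a had the lowest, at -5.23, -5.53, -5.19 and -5.23 in G20 brains against -4.65, -4.38, -4.29 and -4.59 in NC brains. The annotation places this probe apart from the other Hist3h2a probes and lists no RefSeq transcript for it. Its arrays did not overlap, and the difference of -0.82 ± 0.19 had a limma adjusted p of 0.0571. In the matrix this Hist3h2a probe was the 1 histone probe called by limma, as lower, with an adjusted p of 0.00346, beside 0.508% of all matrix probes lower.

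In liver 4 of 61 histone probes were higher in G20 than in NC and none was lower, beside 3.88% of all probes higher and 2.62% lower. The share of histone probes called was therefore close to that of the whole array. The median difference was -0.19 over 39 replication-dependent probes (range -0.92 to 1.30) and 0.12 over 22 variant probes (range -0.23 to 0.65). Hist3h2ba, which read 1.93, 2.58, 1.96 and 1.86 in G20 livers against 0.11, 0.65, 0.61 and 1.77 in NC livers, was the only replication-dependent probe called. All G20 livers were above all NC livers, 1 NC liver by little, and the difference was 1.30 ± 0.30 (limma adjusted p of 0.0269).

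The other 3 called probes belonged to variants that are made outside S phase. H1f0 read -1.90, -1.89, -1.75 and -1.91 in G20 livers against -2.56, -2.16, -2.35 and -2.41 in NC livers by probe A_51_P511112. These levels did not overlap, and the difference was 0.51 ± 0.12 (limma adjusted p of 0.0340). Probe A_52_P550932 of H1f0 gave 0.45 ± 0.11 (0.0311), while its brightest probe gave 0.40 with a limma adjusted p of 0.226. The array's annotation (mouse build mm8) places A_51_P511112 at chr15:78856761-78856819 and A_52_P550932 at chr15:78856755-78856814. They cover nearly the same bases and are not separate evidence for H1f0. With normexp background correction, A_51_P511112 gave -0.79 and A_52_P550932 gave -0.22 for H1f0. H3f3b read 6.46, 6.83, 6.89 and 6.98 in G20 livers against 5.78, 6.17, 6.50 and 6.11 in NC livers by probe A_52_P61786, an overlap of 1 NC liver, and the difference was 0.65 ± 0.17 (limma adjusted p of 0.0446). The 3 probes of H3f3b lay between 0.48 and 0.65, and only this 1 was called.

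The count of 4 depended on single livers. It was 0 without G20 liver 2, without G20 liver 4 or without NC liver 1, it was 1 without NC liver 2 or NC liver 3, and it was 2 without G20 liver 3 or NC liver 4. The matrix called 6 of the histone probes in this comparison, all higher and including these 4, beside 9.56% of all its probes higher and 1.98% lower, and its median over all probes was 0.13. The summed level of the erythroid markers was 1740 to 1970 in G20 livers against 1530 to 1750 in NC livers, and its part in these calls was not tested. Of the genes around the histones, 1 of 34 DNA replication probes passed in liver, Ccne2 (cyclin E2), at -0.58. Of 18 histone mRNA processing probes, Cpsf3 (an endonuclease that cuts the histone mRNA end) at 0.47, Pou2f1 (the octamer-binding factor Oct-1) at 0.43 and Lsm10 (a subunit of the U7 particle) at -0.32 passed in liver, and Pou2f1 at 0.39 passed in brain.

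The difference between the tissues in the effect of G20 was tested directly. For G20 minus NC, brain minus liver, 0 of 62 histone probes were called by limma, beside 3.57% of all probes. The matrix called 5, all lower, beside 6.89% of its probes.

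The comparisons with the CC clones did not give the same answer from the 2 deposited sources. From the scanner files, 32 of 35 replication-dependent probes were higher in CC brain than in NC brain and none was lower, with a median of 1.08, beside 35.8% of all probes higher and 32.5% lower. From the matrix, none of 34 was higher or lower and the median was -0.08, beside 0.536% of all its probes higher and 20.1% lower. The matrix values had a median over all probes of -0.16 in this comparison and of -0.14 between CC and NC liver. Session, slide and group cannot be told apart here, and the values below are descriptions of each source.

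In the scanner values 7 of 7 H4 probes were higher in CC brain (median 2.15), as were 8 of 8 H2B (0.92), 11 of 13 H2A (1.17), 4 of 5 H1 (1.12) and 2 of 2 H3 probes (0.37). Hist1h2ab read -1.68, -1.56, -2.04 and -2.01 in CC brains against -4.14, -4.10, -4.58 and -4.17 in NC brains, a difference of 2.43 ± 0.26 with no overlap. The matrix difference for Hist1h2ab was 0.05 (limma adjusted p of 0.898). Hist1h4d gave 2.69 by probe A_51_P482070 and 2.34 by A_51_P136097 in scanner values, and 0.14 and 0.08 in the matrix. Hist1h4f was at 2.38 and Hist1h4a at 2.15 in scanner values, against 0.22 and -0.01 in the matrix.

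Of the variants, 10 of 22 were higher and 7 lower in CC brain in scanner values (median 0.16). In the matrix 7 of 22 were lower and none higher (median -0.21), namely probes of H1fx, H2afy, H2afy2, H2afy3, H3f3a and H3f3b. Of these H3f3b was at 0.79 from the scanner files and -0.23 from the matrix, and the brightest H3f3a probe at 0.42 and -0.34. H2afy2 read -2.47, -2.81, -2.48 and -2.61 in CC brains against -1.05, -1.13, -1.003 and -1.05 in NC brains, a difference of -1.53 ± 0.12. The matrix gave -0.38 for H2afy2 (limma adjusted p of 0.0349), in the same direction. H1f0 was lower in CC brain by -1.35 with A_51_P511112 and by -1.34 with A_52_P550932 in scanner values, against -0.20 and -0.13 in the matrix, neither past the threshold. As said above, these H1f0 probes cover nearly the same bases. H2afv was at 1.21 from the scanner files and -0.16 from the matrix. Beside these values, 20 of 34 DNA replication probes were higher and 7 lower in CC brain in scanner values (median 0.42), and 6 of 9 hepatocyte probes were higher and 1 lower (1.76). Of the neural progenitor markers 8 of 13 were higher and 1 lower (0.42), among them Egfr at 1.38 and Nes (nestin) at 0.91. Of the macrophage and microglia markers 6 of 10 were higher and 1 lower, of the endothelial markers 5 of 10 were higher and 1 lower, and of the neuron markers 4 of 13 were higher and 6 lower. Of the erythroid markers 2 of 7 and of the leukocyte and megakaryocyte markers 4 of 9 were higher, and none was lower. Their part in the histone values was not tested.

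**Figure D4:**
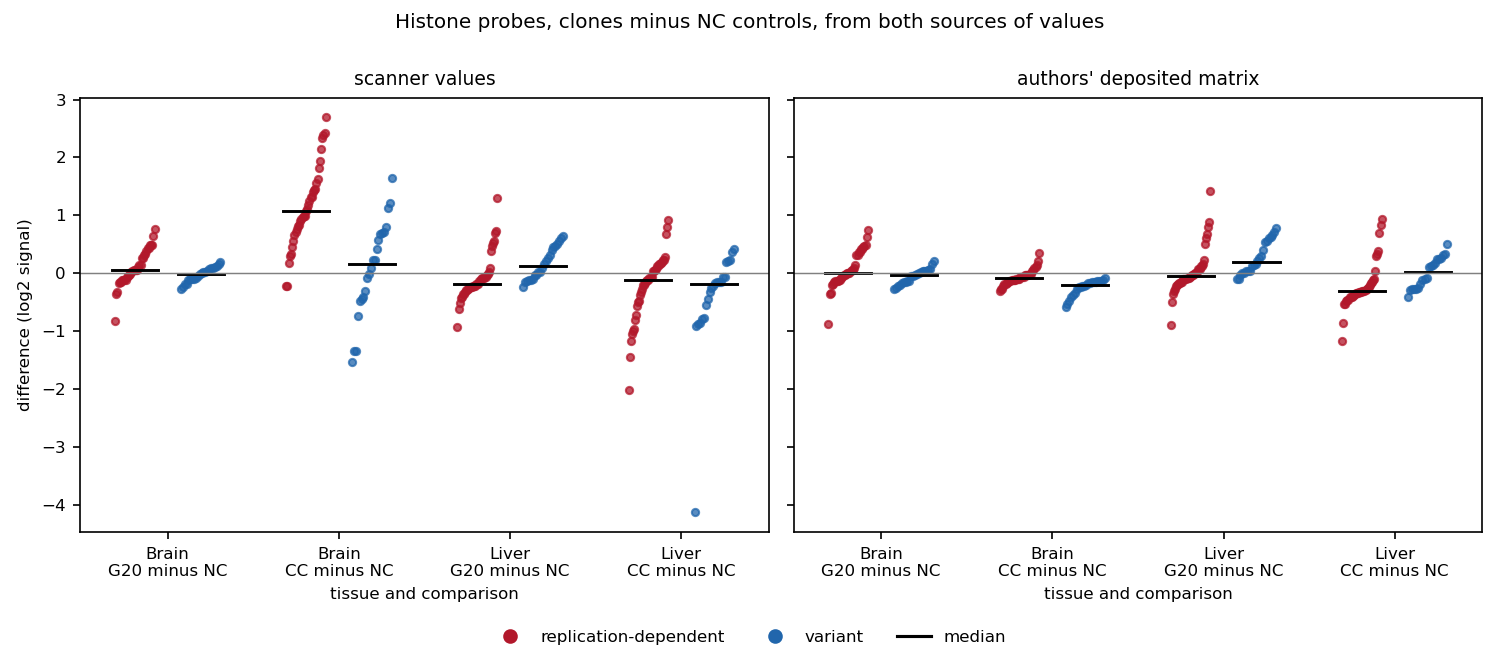
Differences in log2 level of each histone probe for G20 minus NC and CC minus NC in brain and liver, from the scanner files and from the deposited matrix. In brain the replication-dependent median for CC minus NC was 1.08 from the scanner files and -0.08 from the matrix, and for G20 minus NC it was 0.06 from the scanner files.

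In liver 3 of 39 replication-dependent probes were higher and 11 lower in CC than in NC by scanner values (median -0.11), and 1 of 22 variant probes was higher and 8 were lower (-0.19), beside 19.6% of all probes higher and 20.1% lower. The matrix called 1 of 38 replication-dependent probes higher and 6 lower (median -0.31) and 1 of 20 variant probes lower, beside 2.24% and 13.5% of its probes. All 6 lower ones were H2B probes, of 9 tested. Hist3h2ba, the higher one, read 1.78, 2.03, 1.64 and 1.38 in CC livers against 0.11, 0.65, 0.61 and 1.77 in NC livers, with 1 NC liver inside the CC range. Its difference was 0.92 ± 0.30 in scanner values (limma adjusted p of 0.0291) and 0.94 in the matrix (0.0456), so the call for Hist3h2ba did not depend on the source. H1fx probe A_52_P748854 read 2.17, 0.40, 0.07 and 0.77 in CC livers against 4.96, 5.24, 4.62 and 5.13 in NC livers, a difference of -4.13, but the matrix gave 0.15 for H1fx. Hist3h2a probe A_52_P184352 likewise gave -2.02 in scanner values and -0.31 in the matrix. Beside these liver values, 9 of 14 hepatocyte probes were lower and none higher in scanner values (median -0.47), as were 5 of 16 erythroid probes with 1 higher and 6 of 18 leukocyte and megakaryocyte probes with 2 higher, while 5 of 10 endothelial probes were higher and 1 lower. Of the DNA replication probes 3 of 34 were higher and 5 lower. Their part in the histone values was not tested.

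Set directly against the CC clones, G20 brain had 1 of 35 replication-dependent probes higher and 31 lower in scanner values (median -1.03), with 7 of 22 variant probes higher and 10 lower, beside 32.8% of all probes higher and 33.9% lower. The matrix had 1 of 34 replication-dependent probes higher and 1 lower, and 7 of 22 variant probes higher and none lower, beside 20.4% and 0.827% of its probes. Hist1h4h read -3.07, -2.48, -2.57 and -3.16 in G20 brains against -0.98, -0.96, -1.05 and -0.71 in CC brains in scanner values, a difference of -1.90 with no overlap. In G20 liver 11 of 39 replication-dependent probes were higher and 5 lower than in CC liver (median 0.04), and 15 of 22 variant probes were higher and 3 lower (0.61), beside 23.6% and 20.1% of all probes. In the matrix 0 of 58 histone probes were called between G20 and CC liver, beside 0.152% of its probes. In scanner values the markers also moved between G20 and CC, with 5 of 34 DNA replication probes higher and 19 lower and 1 of 13 neural progenitor probes higher and 8 lower in G20 brain, and 11 of 14 hepatocyte probes higher and 1 lower in G20 liver, and their part was not tested.

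For CC minus NC, brain minus liver, 46 of 62 histone probes were called in scanner values, beside 52.2% of all probes. Among them 30 replication-dependent probes were higher and 1 lower, and 11 variant probes were higher and 4 lower. In the matrix 1 of 54 was called, beside 5.63% of its probes.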

How the data were processed

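RNA from 24 samples was hybridised to 1-colour Agilent mouse arrays (4 arrays for each of G20, CC and NC in brain and in liver). Per the file headers, the authors scanned them with Agilent Feature Extraction 9.5.3.1 and deposited, for each spot, an intensity (gProcessedSignal, background-subtracted) and flags (0 or 1) for background, saturation and outliers. They also deposited a matrix of processed intensity values for which no source used here gives the normalization. Column medians of the matrix lay between 223.6 and 489.5. Its scale was taken as linear, because its log2 followed the scanner values.

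Spots flagged as outliers were left out, which removed 3 histone values, and no histone value was saturated. Levels were log2 intensity minus the array's 75th percentile. limma 3.58.1 in R 4.3.3 (lmFit and eBayes) was fitted to single probes, over 12 arrays of a tissue for comparisons between groups and over all 24 for those between tissues, with Benjamini-Hochberg adjustment over all probes of a fit and a threshold of 0.05. The fits were tested on simulated data. A probe entered a fit where 1 or more groups of that fit had it well above background on each of the 4 arrays. Those groups were all groups of the tissue for comparisons within a tissue, and all 6 for those between tissues. A probe could thus enter through a group that was not compared.

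The genes named were all called probes where there were 12 or fewer, otherwise the 6 highest and 6 lowest, and 10 variants by their brightest probe. The members, gene lists and tests were chosen with earlier results of these data known. NC and CC numbers occur in both tissues. Deviations of same-numbered brain and liver arrays correlated at r of 0.123 to 0.162 in CC. In NC r was 0.025 to 0.167 and in G20 0.021 to 0.149. Arrays that matched best with their own number were 4 in CC, 2 in NC and 2 in G20. The numbers may therefore pair the samples in CC. Promoter sequences and current symbols came from RefSeq (GRCm38.p6). The alternatives were quantile normalization, median centring, normexp background correction, other filters, other sets of arrays, 1 probe per gene, a replicate block, the matrix and each array left out.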

Additional observations from a re-analysis of the deposited data

Results flagged for a closer look

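Dixon's test on groups of 4 arrays marked 12 arrays as standing apart among 231 groups examined, which is 5.19%, and chance marks about 1 in 20. In brain these were G20 array 2 for H2afy probe A_52_P402989 (1.59), G20 array 4 for H3f3b probe A_52_P61786 (5.90), G20 array 1 for Hist3h2a probe A_52_P615375 (2.17), G20 array 2 for Hist3h2a probe A_52_P617924 (-5.53), NC array 3 for Hist1h2ab (-4.58) and NC array 3 for Hist2h4 (-0.83). In liver they were G20 array 3 for H1f0 probe A_51_P511112 (-1.75), G20 array 1 for H2afz (6.08), G20 array 2 for Hist3h2ba (2.58), CC array 1 for H2afy probe A_52_P402989 (1.38), CC array 3 for H3f3a (6.50) and CC array 1 for Hist3h2a probe A_51_P441377 (0.86). Of these, the H1f0 and Hist3h2ba arrays enter differences called between G20 and NC livers.

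In scanner values the CC-minus-NC difference itself differed between brain and liver by limma for 17 of the probes named. Brain minus liver, the differences on the log2 scale were -1.47 for H2afy2, -1.36 for Hist3h2a probe A_52_P617924, -1.18 and -1.12 for H1f0 probes A_51_P511112 and A_52_P550932, and -0.41 for H2afy. They were 0.48 for H2afx, 0.98 for H2afv, 1.02 for H2afz, 1.04 for H3f3b and 1.30 for H3f3a. They were 1.99 for H2afj, 2.30 for Hist1h2ab, 2.30 for Hist1h1a, 2.35 for Hist1h4f, 2.35 and 3.06 for Hist3h2a probes A_52_P184352 and A_51_P441377, and 5.78 for H1fx probe A_52_P748854. Of these, Hist3h2a probe A_52_P617924 was well above background on no liver array and H2afy2 on no CC liver array, so their values are only partly measured. With normexp background correction A_52_P617924 gave 1.67 and H1f0 probe A_51_P511112 gave 0.21, neither past the threshold. In the deposited matrix 1 of 54 histone probes was called in this test, and session, slide and group cannot be told apart.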

How the results depend on the processing

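The counts of histone probes called between brain and liver, 57 in G20, 56 in CC and 60 in NC, stayed within 1.5 times under every alternative run. Over all probes 44.7% were higher and 43.2% lower in G20, 40.2% and 42.7% in CC, and 44.9% and 42.7% in NC. Most probes of the array were thus called, and steady counts in either direction say little about the histones. The limits lie in the comparisons between groups: each group is 1 slide, CC has its own session, dim probes carry little signal over background, and 4 arrays a group set the precision. Normexp background correction lowered or raised the share of all probes called, for example to 38.6% between G20 and NC liver. Over the named probes, 5082 of 5367 alternative values kept their side of the threshold, 206 lost it and 19 gained it. A further 60 changed sign where the main or the alternative value passed. A change of sign where neither passed is counted among the 5082 and not listed below. No cause was tested.

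Between G20 and NC brain the count, 0, was 1 with median centring, in the matrix, with only the groups compared and with all 24 arrays, lower in G20 each time. Between G20 and NC liver the count, 4, was 2 with median centring, 2 with quantile normalization, 13 with normexp, 1 with no filter on dim probes, 2 with a replicate block, 2 with only the groups compared, 1 with 1 probe per gene and 14 (10 higher, 4 lower) with all 24 arrays. Between CC and NC it was 7 in the matrix in place of 49 in brain, and 3 with normexp and 8 in the matrix in place of 23 in liver. Between G20 and CC it was 26 with normexp and 9 in the matrix in place of 49 in brain, and 12 with normexp, 0 in the matrix and 22 with 1 probe per gene in place of 34 in liver. For the difference between tissues of G20 minus NC it was 1 with quantile normalization, 11 with normexp and 5 in the matrix in place of 0, and for CC minus NC it was 15 with normexp and 1 in the matrix in place of 46.

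With 1 array left out, the counts ran from 0 to 1 (G20 minus NC), 48 to 51 (CC minus NC) and 46 to 49 (G20 minus CC) in brain, from 0 to 4, 20 to 25 and 30 to 37 in liver, from 56 to 58 (G20), 55 to 57 (CC) and 60 to 61 (NC) between tissues, and from 0 to 2 (G20 minus NC) and 45 to 47 (CC minus NC) for the differences between tissues. The 1 in brain came without CC brain 1 or CC brain 2. The 2 came without G20 liver 1 or NC liver 4, and G20 liver 3 or NC liver 3 gave 1. With the replicate block the counts were 0, 48 and 47 in brain, 2, 23 and 34 in liver, and 57, 56 and 60 between tissues. In CC, where the numbers may pair, the fit on CC arrays alone with the block, chosen after seeing the data, gave 57. Elsewhere same-numbered arrays did not all match best with each other.

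Signs changed in the matrix for CC minus NC brain in Hist1h4a (-0.013), Hist2h4 (-0.027), H3f3b (-0.23), H2afx (-0.13), H2afv (-0.16), H2afj (-0.23), H2afz (-0.23), H1fx (-0.17) and H3f3a (-0.34, and -0.24 with quantile normalization). For G20 minus CC brain they changed in Hist1h4d (0.28 and 0.34), Hist1h2ab (0.42), Hist1h4f (0.27), Hist1h4a (0.33), H3f3b (0.26), H2afv (0.22), H2afj (0.31), H2afz (0.27), H1fx (0.14) and H3f3a (0.18, and 0.014 with quantile normalization), and with normexp in Hist2h2aa2 (-0.54). In liver the matrix changed CC minus NC in Hist1h4d (-0.27), H2afy (-0.077) and H1fx (0.15), and G20 minus CC in H1fx (-0.028), Hist1h4d (0.28 and 0.25), Hist2h2be (0.37), Hist1h2bk (0.27), Hist1h2bm (0.25), H2afy (0.23) and H2afx (0.26). For the CC-minus-NC difference between tissues it changed H1fx (-0.32), Hist1h1a (-0.11), H3f3b (-0.49), H2afv (-0.29) and H3f3a (-0.060). Normexp changed G20 minus NC liver in H1f0 (-0.79 and -0.22) and H2afy2 (-1.48), G20 minus CC liver in H1foo (-0.76), H1fx (-0.22), Hist1h2bk (0.032) and Hist1h2bm (0.014), brain minus liver in Hist3h2a (-0.28 in CC, -1.95 in NC) and H1f0 (-0.65 in NC), and the differences between tissues in H2afy2 (1.42 for G20), Hist3h2a (1.67 for CC) and H1f0 (0.21 for CC). Quantile normalization changed brain minus liver in H3f3b (0.35 in G20, 0.80 in CC, 0.72 in NC), H2afv (0.17 in CC) and H3f3a (0.29 in CC), and the CC difference between tissues in H2afx (-0.12). Median centring changed H2afy between tissues (-0.11 in G20, -0.23 in CC).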
